A study of Homo sapiens with 12 samples.

Results

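The ErbB receptors and their ligands were examined as 10 listed genes, of which 4 encode receptors (EGFR, ERBB2, ERBB3 and ERBB4) and 6 encode ligands (NRG1, AREG, EREG, HBEGF, TGFA and BTC). The members are all probe sets that the platform annotation assigns to 1 of these symbols alone, which gave 38 probe sets of 9 genes among 54675 probe sets, with 19775 gene symbols, on the array. No probe set is named AREG in that annotation, so AREG was not analysed here. A probe set is a group of short probes for 1 target, and 23 of the 38 were above the median signal of their own array on at least 3 of the 12 arrays and were tested. RNA levels were measured in CL1-5 and CL1-0, human lung adenocarcinoma (non-small cell lung cancer) cell lines derived from a common parental line, of which CL1-5 is the more invasive. The 4 groups were CL1-5 in a direct-current electric field (shown as EF in the plots) of 300 mV/mm for 2 h, CL1-5 kept for the same time at 0 mV/mm, CL1-0 under the field, and CL1-0 at 0 mV/mm, with 3 arrays each. Cells of all groups grew overnight with 10% serum in a microfluidic chip, were switched to serum-free medium for the 2 h, and were detached with trypsin. The labels call the arrays of a group biological replicates. Each line is a single line, so a difference between CL1-5 and CL1-0 is a difference between these lines.

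ErbB receptors are tyrosine kinases of the cell surface that pair with themselves or with each other when a ligand binds, and then signal through the RAS-MAPK and PI3K-AKT pathways. EGFR binds TGFA, AREG, HBEGF, EREG and BTC, ERBB3 and ERBB4 bind neuregulins such as NRG1, ERBB2 has no known ligand and serves as a partner, and ERBB3 has a weak kinase. The ligands are made as membrane-bound precursors and released by ADAM proteases, and the family is known in lung adenocarcinoma because EGFR and ERBB2 are altered by mutation or amplification in some tumours.

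EGFR and HBEGF were the members for which the probe set with the highest mean differed between the lines in both field states (values below). Their promoters, the 250 bases before the annotated gene start on the gene's strand, are shown because the RNAs of a receptor and its ligand were higher in the same line, with the GC box (GGGCGG or its complement CCGCCC, the core of the site bound by SP1) in capitals. They are from RefSeq, build GRCh38.p14, at chr7:55018767-55019016 on the plus strand for EGFR and at chr5:140346604-140346853 on the minus strand for HBEGF.
EGFR: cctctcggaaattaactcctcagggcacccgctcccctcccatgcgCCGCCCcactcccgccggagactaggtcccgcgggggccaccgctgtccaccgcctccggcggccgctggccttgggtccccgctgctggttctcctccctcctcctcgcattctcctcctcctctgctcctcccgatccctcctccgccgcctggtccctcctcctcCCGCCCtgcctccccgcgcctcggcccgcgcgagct
HBEGF: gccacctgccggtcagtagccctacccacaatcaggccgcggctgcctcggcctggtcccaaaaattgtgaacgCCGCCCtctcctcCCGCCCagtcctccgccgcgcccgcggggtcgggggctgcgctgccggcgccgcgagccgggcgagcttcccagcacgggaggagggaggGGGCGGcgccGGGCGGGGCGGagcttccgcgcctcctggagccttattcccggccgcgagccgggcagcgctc
The EGFR stretch held 2 GC box matches and the HBEGF stretch 5, some of which overlap (both strands). Of 35116 RefSeq promoters of the same length, 42.6% held at least 1 match. The G+C content was 73.6% for EGFR and 76.4% for HBEGF, against a median of 58.0% over all promoters. Neither stretch held a TATA box (TATAAA), which 10.7% of promoters held, or an AP-1 site (TGANTCA), which 6.6% held. These matches describe the letters of the windows only.

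All values are array signals on the linear scale of the MAS5 algorithm unless given as log2. The medians of the 12 arrays lay between 60.7 and 72.4, and a signal below the array's median is treated as low, so that a fold against it is written as "at least". Replicate 1 of every group stood apart from the other replicates. On these 4 arrays the poly-A control dap, a transcript added during labelling, gave signals of 5.92 to 21.2, against 789 to 1063 on the 8 arrays of replicates 2 and 3. The 3'-to-5' signal ratio of GAPDH, a measure of RNA or cRNA integrity, was 0.910 to 1.02 on the 4 arrays and 0.920 to 0.953 on the 8, and that of ACTB was 1.26 to 1.54 and 1.21 to 1.32. Each group holds 1 array of the first kind and 2 of the second, so line differences of several probe sets are also given on the 8 arrays alone. Of 5 alveolar markers, NKX2-1, SFTPB and KRT7 were above the array median on all 12 arrays, NAPSA on 10 and SFTPC on 6. Of 5 epithelial markers, KRT8 and KRT18 were above it on all 12, CDH1 on 9 (3 of CL1-5 and 6 of CL1-0) and KRT19 on 2. EPCAM, an epithelial adhesion protein, was above it on the 6 CL1-0 arrays and on no CL1-5 array. The endothelial markers CDH5 and VWF and the leukocyte markers PTPRC and CD14 were above the median on 0 arrays, while PECAM1 was above it on 12, CD3E on 6, DCN on 7, COL1A2 on 2 and PDGFRA on 6, all of them CL1-5.

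CL1-5 had higher EGFR and HBEGF signals than CL1-0, and NRG1 probe sets moved in different directions. Lower signals in CL1-5 were called in 1 probe set of ERBB3 without the field and in 1 of ERBB4 under it. Both of these probe sets passed the filter through CL1-0 arrays alone, and all their CL1-5 values were below their array's median. Under the field, 5 of the 23 member probe sets were higher in CL1-5, against 7.03% of all 31890 tested, and 1 was lower, against 6.41%, at an adjusted p under 0.05. Without the field, 6 of 23 were higher (6.53% of all probe sets) and 1 was lower (5.58%). The probe sets called higher belonged to EGFR, HBEGF and NRG1 in both states. The lower counts rest wholly on the ERBB4 and ERBB3 probe sets named above, whose CL1-5 signals are treated as low. The median log2 fold change of CL1-5 over CL1-0 over the 23 was 0.24 under the field and 0.88 without it, against -0.08 and -0.01 over all probe sets. With the replicate number as a block, 10 of the 23 were called under the field, against 31.6% of all probe sets, and 11 without it, against 28.5%.

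**Figure D1:**
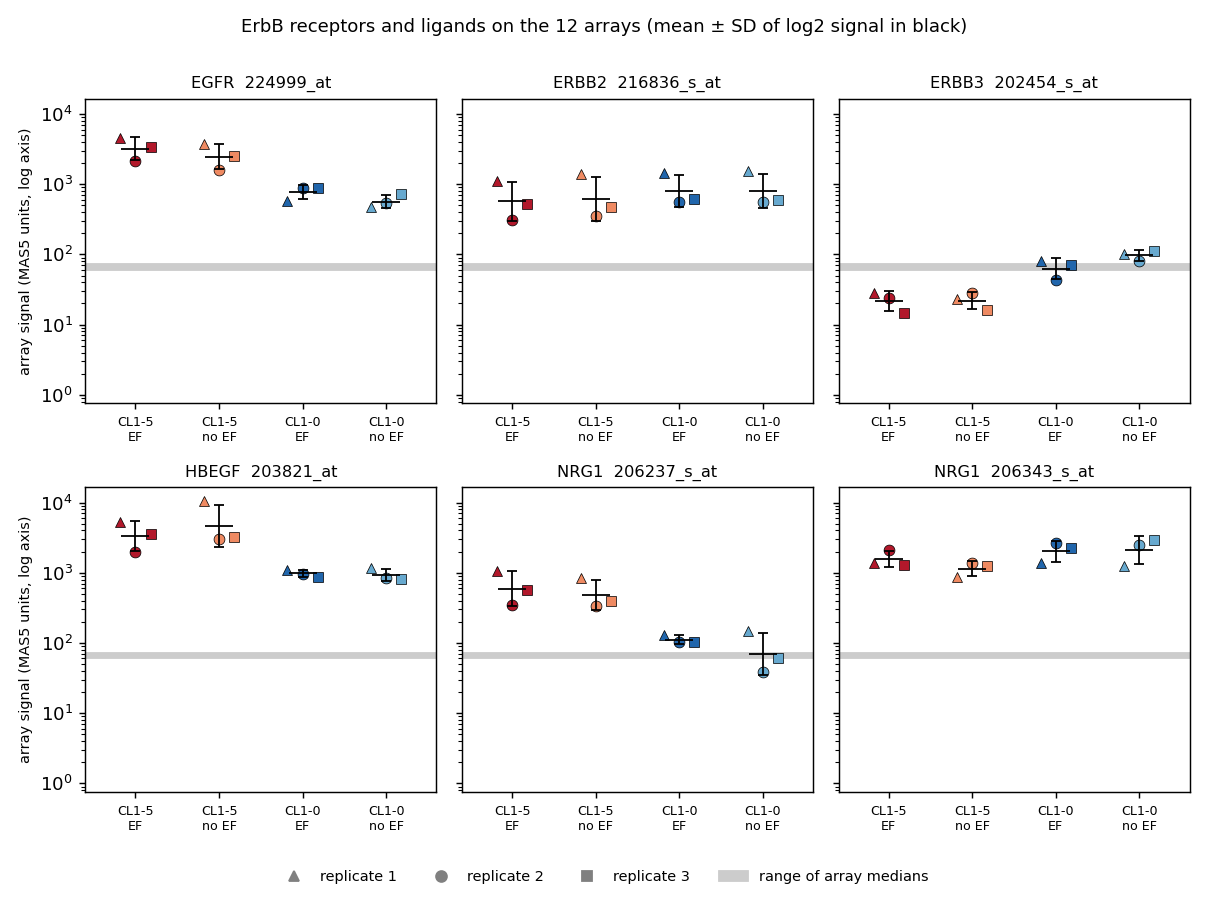
Array signals (MAS5 units, log axis) of 6 ErbB probe sets in the 4 groups, with 1 point per array, the shape giving the replicate, black bars for the mean ± SD of log2 signal (n = 3) and a grey band for the range of the 12 array medians. EGFR and HBEGF lie higher in CL1-5, ERBB3 202454_s_at lies below the array medians in CL1-5, and the NRG1 probe sets 206237_s_at and 206343_s_at differ in direction.

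EGFR (chromosome 7, 55019017 to 55211628, GRCh38.p14) is represented by 9 probe sets, of which 7 were tested. The one with the highest mean, 224999_at, gave 4490, 2133 and 3390 in CL1-5 under the field, against 585, 890 and 873 in CL1-0 under the field. At 0 mV/mm it gave 3767, 1618 and 2485 in CL1-5, against 468, 531 and 715 in CL1-0. Every CL1-5 array was above every CL1-0 array in both states. The log2 fold change was 2.05 ± 0.36 under the field (SE, n = 3 arrays per group, 4.15-fold, adjusted p = 0.00265 by limma) and 2.14 ± 0.36 without it (4.40-fold, adjusted p = 0.00203). On the 8 arrays with the spike-in signal alone it was 1.61 and 1.70 (adjusted p = 0.00164 and 0.00121). In order, the mean log2 signals were 11.64 ± 0.54 in CL1-5 under the field, 11.27 ± 0.61 in CL1-5 without it, 9.59 ± 0.34 in CL1-0 under the field and 9.14 ± 0.31 in CL1-0 without it (SD, n = 3). The 2 field states of a line overlapped, and the lines did not. These are bulk RNA values, in which more cells with a transcript and more of it per cell cannot be told apart.

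A further EGFR probe set, 201984_s_at, ranked the lines the same way. Its signals were 2993, 1061 and 1769 in CL1-5 under the field, against 394, 355 and 365 in CL1-0 under the field. Without the field they were 3025, 914 and 1385 in CL1-5, against 412, 400 and 484 in CL1-0. The groups of the lines did not overlap, with a log2 fold change of 2.26 ± 0.43 under the field (SE, 4.79-fold, adjusted p = 0.00462) and 1.86 ± 0.43 without it (3.64-fold, adjusted p = 0.0143). The call without the field ended when CL1-0 replicate 2 was left out (adjusted p = 0.0517).

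The other EGFR probe sets did not pass the test, and 3 of them were dominated by replicate 1. Probe set 201983_s_at gave 11473, 298 and 463 in CL1-5 under the field, against 1191, 153 and 131 in CL1-0 under the field. At 0 mV/mm it gave 9896, 299 and 399 in CL1-5, against 1081, 99.2 and 109 in CL1-0. In every group the first value, replicate 1, was the highest by far: over the 4 groups the signal was 16.7-fold higher on replicate 1 than on the mean of the other replicates on the log2 scale. The same shift was 12.7-fold for 210984_x_at and 9.91-fold for 211607_x_at, but 1.12-fold for 224999_at and 1.57-fold for 201984_s_at. Over all 31890 probe sets the shift had a median log2 of 0.01, with 5% below -1.44 and 5% above 1.75, and 0.144% of them shifted at least as much as 201983_s_at. Within each replicate number the difference between the lines had 1 sign: for 201983_s_at CL1-5 exceeded CL1-0 by log2 values of 3.27, 0.96 and 1.82 under the field and 3.19, 1.59 and 1.88 without it.

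With that spread, the log2 fold change of 201983_s_at was 2.01 ± 1.63 under the field (SE, adjusted p = 0.497) and 2.22 ± 1.63 without it (adjusted p = 0.484). With the replicate number as a block the same fold changes passed, with adjusted p = 0.0013 and 0.000721. On the 8 arrays with the spike-in signal alone they were 1.39 and 1.74 and also passed (adjusted p = 0.008 and 0.00247 by limma). Probe set 210984_x_at, with signals of 25.7 to 1434 in CL1-5 and 5.68 to 111 in CL1-0, had log2 fold changes of 3.88 ± 1.63 under the field (adjusted p = 0.156) and 2.34 ± 1.63 without it (adjusted p = 0.457), and with the block adjusted p = 0.000692 and 0.0169. Probe set 211607_x_at, with signals of 36.8 to 1118 in CL1-5 and 7.91 to 146 in CL1-0, had 2.91 ± 1.45 under the field (adjusted p = 0.234) and 2.11 ± 1.45 without it (adjusted p = 0.445), and with the block adjusted p = 0.00459 and 0.0286. Most CL1-0 values of both probe sets were below their array's median, so these log2 sizes are not interpretable as folds. With values below the array median raised to it, 210984_x_at was 3.19-fold higher in CL1-5 under the field and 2.97-fold without it. For 211607_x_at these folds were 2.81 and 2.28. On the 8 arrays alone 210984_x_at passed under the field (4.08, adjusted p = 0.0239) and not without it, and 211607_x_at passed in neither state. The probes of a set whose name ends in _x_at can match other transcripts as well. What the replicate number stands for was not tested, and it cannot be told apart from the spike-in difference for replicate 1.

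Probe sets 211551_at and 1565484_x_at lay near the array median and had log2 fold changes from -0.47 to 0.10 in the 2 states. Their signals were 46.3 to 120 and 12.9 to 104 in CL1-5, against 75.7 to 137 and 11 to 84.6 in CL1-0. The groups overlapped and neither set passed (adjusted p = 0.608 to 0.972). The 2 EGFR probe sets that were not tested gave 3.23 to 111, with 1 of 24 values above the array median. When the log2 values of all EGFR probe sets were averaged, the line difference was 1.60 under the field (adjusted p = 0.168) and 1.22 without it (adjusted p = 0.324), so the call for EGFR rests on 224999_at and 201984_s_at.

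**Figure D2:**
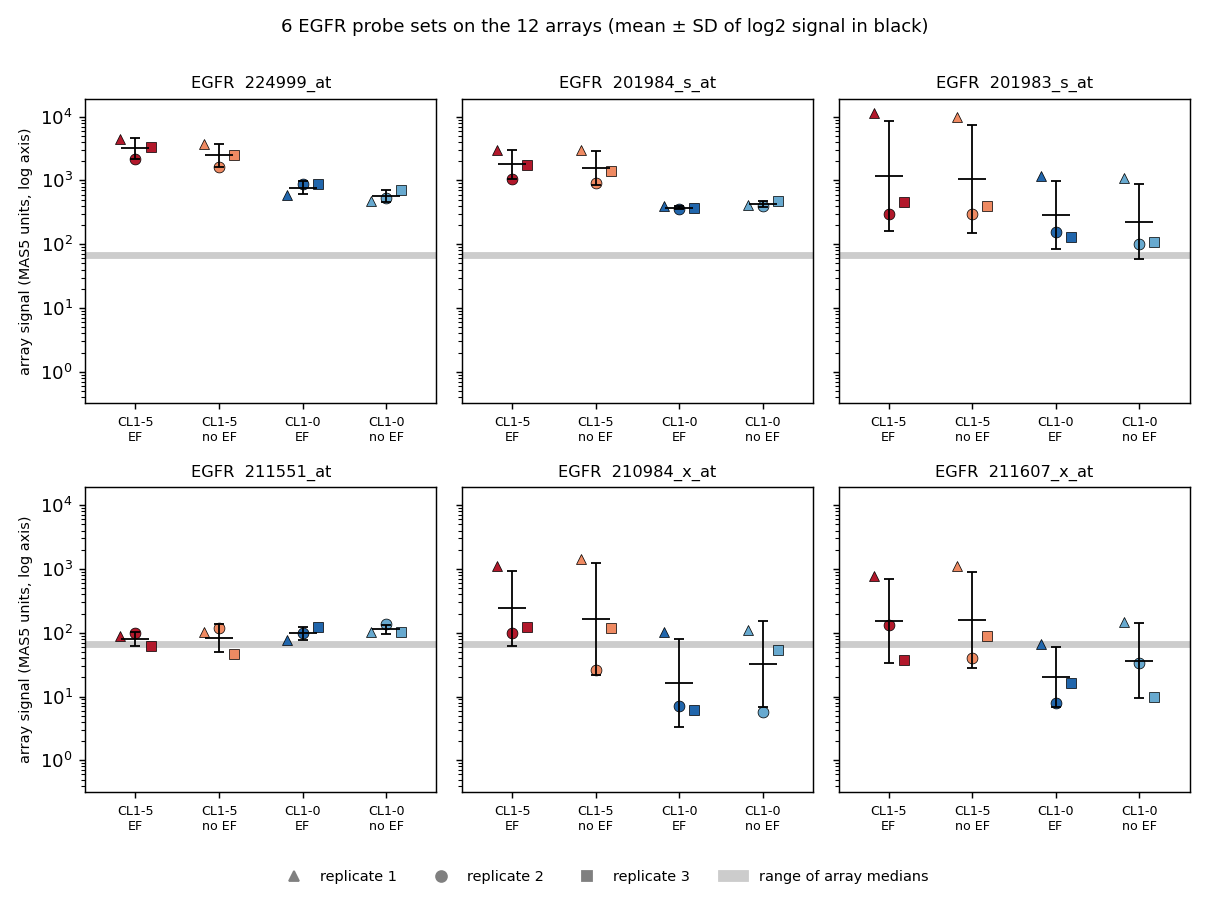
Array signals (MAS5 units, log axis) of 6 EGFR probe sets in the 4 groups, with 1 point per array, the shape giving the replicate, black bars for the mean ± SD of log2 signal (n = 3) and a grey band for the range of the array medians. Replicate 1, shown by triangles, is the highest array of each group for 201983_s_at, 210984_x_at and 211607_x_at, and the lines separate most clearly for 224999_at and 201984_s_at.

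ERBB2 (chromosome 17, 39688094 to 39728658) did not pass the test for a difference between the lines. Its main probe set, 216836_s_at, gave 1114, 313 and 525 in CL1-5 under the field, against 1464, 561 and 609 in CL1-0 under the field. Without the field it gave 1379, 348 and 479 in CL1-5, against 1532, 564 and 602 in CL1-0. The groups overlapped, although CL1-5 was the lower line within each replicate number. The log2 fold change was -0.48 (95% interval -1.85 to 0.88, adjusted p = 0.698) under the field and -0.39 (-1.76 to 0.98, adjusted p = 0.806) without it. Replicate 1 was the highest array of every group, 2.80-fold above the mean of the others, and the fit without a block counts this shift as spread. Over the alternative fits, blocks included, the smallest adjusted p of 216836_s_at by limma was 0.0563 under the field and 0.125 without it. The probe set 210930_s_at, at 6.13 to 117 in CL1-5 and 50.5 to 179 in CL1-0, had log2 fold changes of -1.51 and -1.24 (adjusted p = 0.41 and 0.558). The ERBB2 probe set not tested gave 33.5 to 78.

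ERBB3 (chromosome 12, 56080108 to 56103505), a neuregulin receptor, was near or below the array median, and its probe sets disagreed. Its probe set with the highest mean, 215638_at, gave 51.2, 59.3 and 34.3 in CL1-5 under the field, against 35.1, 46.1 and 99.2 in CL1-0 under the field. Without the field it gave 73.7, 72.4 and 69.3 in CL1-5, against 68.8, 53 and 67.4 in CL1-0. The lines overlapped under the field, and without it the CL1-5 arrays lay just above the CL1-0 arrays. The log2 fold change was -0.21 (95% interval -1.24 to 0.83, adjusted p = 0.841) under the field and 0.20 (-0.84 to 1.23, adjusted p = 0.882) without it.

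With all 12 arrays, 202454_s_at was the ERBB3 probe set that passed. In it the signals were 28.3, 23.6 and 14.8 in CL1-5 under the field, against 80.4, 43.3 and 71.7 in CL1-0 under the field. Without the field they were 22.9, 28.4 and 16.3 in CL1-5, against 102, 80.3 and 113 in CL1-0. The groups of the lines did not overlap, and all CL1-5 values were below their array's median, so this probe set passed the filter through CL1-0 arrays alone. Without the field the signal was at least 1.46-fold lower in CL1-5 (log2 fold change -2.15 ± 0.52, SE, adjusted p = 0.0191). Under the field the log2 fold change was -1.55 ± 0.52 and missed the threshold (adjusted p = 0.0753), which it passed with the spike-in signal as a block (adjusted p = 0.0438) and with eBayes without a trend (adjusted p = 0.0154). With values below the array median raised to it, the signal under the field was 1.07-fold lower in CL1-5. Over the alternative limma fits this log2 fold change ran from -1.82 to -0.10, with adjusted p from 0.0154 to 0.783. The call without the field ended when CL1-0 replicate 1, CL1-0 replicate 3 or CL1-5 replicate 3 was left out (adjusted p = 0.0617, 0.0822 and 0.0689), and when every value under its array's median was set to that median (log2 fold change -0.54, adjusted p = 0.0567).

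The ERBB3 probe set 226213_at gave 12.3 to 45.7 in CL1-5 and 24.4 to 118 in CL1-0, and it too passed the filter through CL1-0 arrays alone. CL1-5 lay below CL1-0 in both states without overlap, with log2 fold changes of -1.39 under the field (adjusted p = 0.247) and -1.31 without it (adjusted p = 0.303). On the 8 arrays with the spike-in signal these were -0.88 (adjusted p = 0.28) and -1.94, which passed (adjusted p = 0.0269). All CL1-5 values of 226213_at were below their array's median. With values below the median raised to it on all 12 arrays, CL1-5 was 1.20-fold lower under the field and 1.21-fold lower without it. Probe set 1563253_s_at, at 21.2 to 137 in CL1-5 and 16.9 to 96.7 in CL1-0, had 0.45 under the field (adjusted p = 0.789) and 0.88 without it (adjusted p = 0.599). The remaining ERBB3 probe set gave 2.92 to 8.39 and no value above the median.

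ERBB4 (chromosome 2, 211375717 to 212538802), the other neuregulin receptor, had 1 tested probe set, 214053_at. Its signals were 2.3, 5.75 and 1.01 in CL1-5 under the field, against 145, 88.6 and 121 in CL1-0 under the field. Without the field they were 52.2, 4.2 and 33 in CL1-5, against 82.9, 77.7 and 73.7 in CL1-0. All CL1-0 values were above their array's median and all CL1-5 values below it, and the groups did not overlap. The probe set thus passed the filter through its CL1-0 arrays alone. Under the field the signal was at least 1.76-fold lower in CL1-5 (adjusted p = 0.00308). Without the field the difference did not pass (log2 fold change -2.01, 95% interval -4.19 to 0.17, adjusted p = 0.253). The 3 other ERBB4 probe sets gave 1.28 to 74.8, with 3 of 36 values above the array median.

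Among the ligands, HBEGF (chromosome 5, 140332843 to 140346603), which binds EGFR and ERBB4, was higher in CL1-5 in both of its tested probe sets. Probe set 203821_at gave 5285, 2003 and 3606 in CL1-5 under the field, against 1109, 967 and 871 in CL1-0 under the field. At 0 mV/mm it gave 10403, 3068 and 3248 in CL1-5, against 1151, 850 and 813 in CL1-0. Every CL1-5 array exceeded every CL1-0 array, and the highest value came from replicate 1 of CL1-5 without the field. The log2 fold change was 1.78 ± 0.45 under the field (SE, 3.44-fold, adjusted p = 0.0222) and 2.34 ± 0.45 without it (5.07-fold, adjusted p = 0.00521). On the 8 arrays with the spike-in signal it was 1.55 and 1.93 (adjusted p = 0.00103 and 0.000273). The call under the field ended when CL1-0 replicate 2, CL1-0 replicate 3, CL1-5 replicate 1 or CL1-5 replicate 3 was left out (adjusted p = 0.067, 0.079, 0.077 and 0.0702).

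Probe set 38037_at of HBEGF gave 4925, 1208 and 2114 in CL1-5 under the field, against 471, 440 and 566 in CL1-0 under the field. Without the field it gave 5354, 1747 and 1716 in CL1-5, against 701, 452 and 465 in CL1-0. The lines were again apart on every array, with a log2 fold change of 2.25 ± 0.52 under the field (SE, 4.75-fold, adjusted p = 0.0132) and 2.26 ± 0.52 without it (4.78-fold, adjusted p = 0.0135). The call without the field ended when CL1-0 replicate 2 or 3 was left out (adjusted p = 0.0528 and 0.0538). The mean log2 signals of 203821_at were 11.72 ± 0.71 in CL1-5 under the field, 12.20 ± 0.99 in CL1-5 without it, 9.93 ± 0.17 in CL1-0 under it and 9.86 ± 0.27 in CL1-0 without it (SD, n = 3). CL1-5 without the field had the highest mean, and the field states overlapped within each line. The 2 other HBEGF probe sets gave 2.21 to 100, with 1 of 24 values above the array median, and with all 4 probe sets averaged the line difference was 1.51 under the field (adjusted p = 0.0632) and 1.36 without it (adjusted p = 0.0964).

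NRG1 (chromosome 8, 31639245 to 32774046), a ligand of ERBB3 and ERBB4, is transcribed into many isoforms from several start sites, and its probe sets gave opposite directions. The one with the highest mean, 206343_s_at, gave 1394, 2100 and 1281 in CL1-5 under the field, against 1383, 2675 and 2230 in CL1-0 under the field. At 0 mV/mm it gave 873, 1368 and 1248 in CL1-5, against 1234, 2483 and 2937 in CL1-0. The groups overlapped, with a log2 fold change of -0.38 (95% interval -1.18 to 0.42, adjusted p = 0.579) under the field and -0.87 (-1.66 to -0.07, adjusted p = 0.167) without it. The difference without the field passed with the replicate number as a block (adjusted p = 0.00734), on the 8 arrays with the spike-in signal (-1.05, adjusted p = 0.00707) and without replicate 1 of CL1-0 (-1.24, adjusted p = 0.0406).

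NRG1 probe set 206237_s_at ranked the lines the other way. Its signals were 1069, 345 and 564 in CL1-5 under the field, against 130, 103 and 104 in CL1-0 under the field. Without the field they were 850, 338 and 393 in CL1-5, against 148, 38.8 and 60.3 in CL1-0. No arrays of the lines overlapped. The log2 fold change was 2.41 ± 0.54 under the field (SE, 5.30-fold, adjusted p = 0.0124), and without it the signal was at least 5.81-fold higher in CL1-5 (2.78 ± 0.54, adjusted p = 0.00556), since 2 of the 3 CL1-0 arrays there were below their median. On the 8 arrays with the spike-in signal the log2 fold change was 2.09 and 2.91 (adjusted p = 0.00164 and 0.000215).

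Probe set 208230_s_at of NRG1 gave 686, 128 and 213 in CL1-5 under the field, against 172, 138 and 52.5 in CL1-0 under the field. At 0 mV/mm it gave 562, 236 and 243 in CL1-5, against 128, 41.8 and 38.4 in CL1-0. The lines overlapped under the field (log2 fold change 1.31 ± 0.70, SE, adjusted p = 0.274, or 0.0188 once the replicate number was a block) and not without it, where the signal was at least 4.03-fold higher in CL1-5 (adjusted p = 0.0419). This call was lost in 5 of the 6 fits that left out 1 array of the groups compared, all but the one without replicate 1 of CL1-0 (adjusted p = 0.0715 to 0.148). It was also lost when low values were raised (adjusted p = 0.056), with no filter (0.0591) and with eBayes without a trend (0.0576). Probe sets 208241_at and 208231_at, at 17.5 to 396 in CL1-5 and 15.6 to 131 in CL1-0, had log2 fold changes of 0.24 and 0.41 under the field and 1.34 and 1.66 without it, and did not pass (adjusted p = 0.189 to 0.928). Probe set 208231_at passed the filter through CL1-5 arrays alone, and its lines did not overlap without the field. With values below the array median raised to it, 208231_at was 1.45-fold higher in CL1-5 without the field. The NRG1 probe set not tested gave 11.1 to 63.9. Averaged over its probe sets, NRG1 had a log2 difference of 1.37 without the field (adjusted p = 0.0406), the sign opposite to that of 206343_s_at.

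TGFA (chromosome 2, 70447284 to 70553826), a ligand of EGFR, lay close to the array median. Probe set 205016_at gave 91, 98.2 and 222 in CL1-5 under the field, against 61.3, 193 and 132 in CL1-0 under the field. Without the field it gave 109, 135 and 80.1 in CL1-5, against 44.1, 91.5 and 99.6 in CL1-0. The groups overlapped, with a log2 fold change of 0.12 (95% interval -1.03 to 1.27, adjusted p = 0.926) under the field and 0.52 (-0.63 to 1.67, adjusted p = 0.654) without it. The other tested TGFA set, 211258_s_at, had -0.91 (adjusted p = 0.532) and 0.71 (adjusted p = 0.688), and the last gave 4.88 to 38.8.

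EREG (chromosome 4, 74365145 to 74388749) and BTC (chromosome 4, 74744759 to 74794523), both ligands of EGFR and ERBB4, were not tested because neither of their 2 probe sets passed the filter. EREG gave 1.78 to 73.9, with 1 of 24 values above the array median, and BTC gave 1.12 to 52.2, with 0 of 24. In all, the 15 untested probe sets of the family gave 1.12 to 111 in the 4 groups, with 9 of 180 values above the median.

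**Figure D3:**
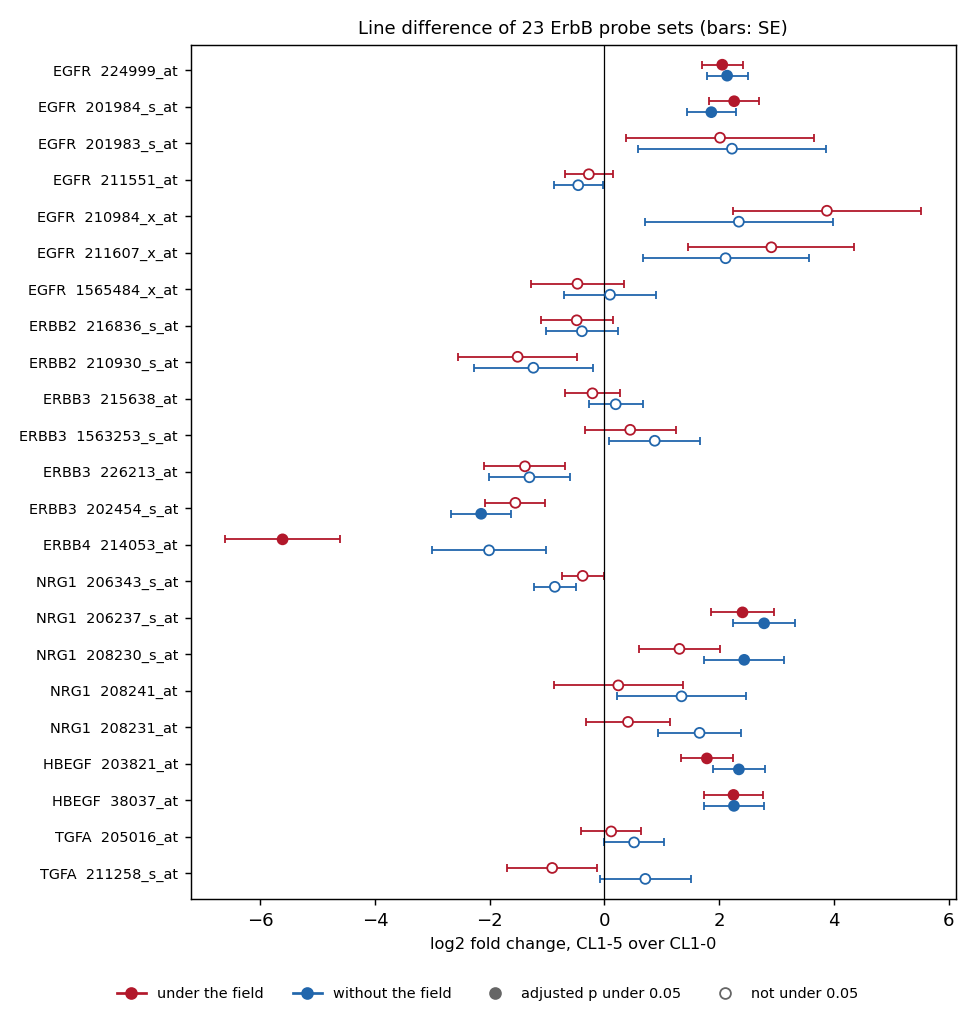
Log2 fold change of CL1-5 over CL1-0 (x axis) for the 23 tested ErbB probe sets, under the field in red and without it in blue, with bars for the SE of the limma fit and filled points where the adjusted p is under 0.05. Filled points lie to the right for EGFR, NRG1 and HBEGF. To the left, the filled points are 1 probe set of ERBB3 without the field and 1 of ERBB4 under it.

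None of the tested probe sets, which cover the 4 receptors, NRG1, HBEGF and TGFA, passed the test for the field after 2 h. AREG, EREG and BTC had no tested probe set. In CL1-5 and in CL1-0, 0 of the 23 probe sets passed, against 0% of all 31890 tested in each line, and the difference of the response between the lines also gave 0 of 23 and 0% of all. At an unadjusted p under 0.05, limma gave 1 of the 23 in CL1-5 and 0 in CL1-0, against 1.67% and 1.06% of all probe sets, and 1 for the difference between the lines, against 1.2%. The log2 fold changes ran from -3.03 to 0.64 in CL1-5 (median -0.03) and from -0.97 to 1.20 in CL1-0 (median 0.26).

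EGFR 224999_at was higher under the field in all 6 pairs of arrays with the same replicate number. The log2 differences were 0.25, 0.40 and 0.45 for the CL1-5 pairs, with 0.32, 0.74 and 0.29 for the CL1-0 pairs. The fitted change was 0.37 (95% interval -0.41 to 1.15) in CL1-5 and 0.45 (-0.33 to 1.23) in CL1-0, with adjusted p = 1.0 in both, and with the replicate block adjusted p = 0.812 and 1.0. No other of the 23 probe sets was higher in all 6 pairs, and 201984_s_at of the same gene was higher in 2 of 6. In CL1-0 that probe set was lower under the field in all 3 pairs, and its field states did not overlap. Its fitted change there was -0.21 (95% interval -1.15 to 0.73) and did not pass. In CL1-5, 3 probe sets were higher in all 3 pairs, 2 were lower in all and 18 were mixed, and in CL1-0 these counts were 9, 2 and 12. Over all 31890 probe sets, 13.3% were higher and 15.6% lower in all 3 CL1-5 pairs, and 14.7% were higher and 12.5% lower in all 3 CL1-0 pairs. The share of all probe sets higher in all 6 pairs was not counted, so the 6 of 6 for 224999_at has no such rate beside it.

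HBEGF 203821_at had a field change of -0.48 (95% interval -1.47 to 0.51) in CL1-5 and 0.08 (-0.91 to 1.07) in CL1-0. For ERBB2 216836_s_at the values were -0.11 (-1.48 to 1.26) and -0.02 (-1.39 to 1.35). NRG1 206343_s_at had 0.44 (-0.35 to 1.24) in CL1-5, where it was higher under the field in each pair, and -0.04 in CL1-0, a difference between the lines of 0.49 (-0.64 to 1.61). Each of these intervals is wide enough to hold a 1.5-fold change in at least 1 direction. They come from the fit without a block, so their width includes the differences between replicate numbers. For ERBB2 216836_s_at the pairs of the same number differed by -0.31, -0.15 and 0.13 in CL1-5 and by -0.07, -0.01 and 0.02 in CL1-0.

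The probe set with an unadjusted p under 0.05 was ERBB4 214053_at in CL1-5 (log2 fold change -3.03, 95% interval -5.21 to -0.85, adjusted p = 1.0 by limma). Its 3 pairs differed by -4.51, 0.45 and -5.03. All 6 CL1-5 values lay between 1.01 and 52.2, below the median of their arrays, so the size of this difference is not interpretable as a fold.

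**Figure D4:**
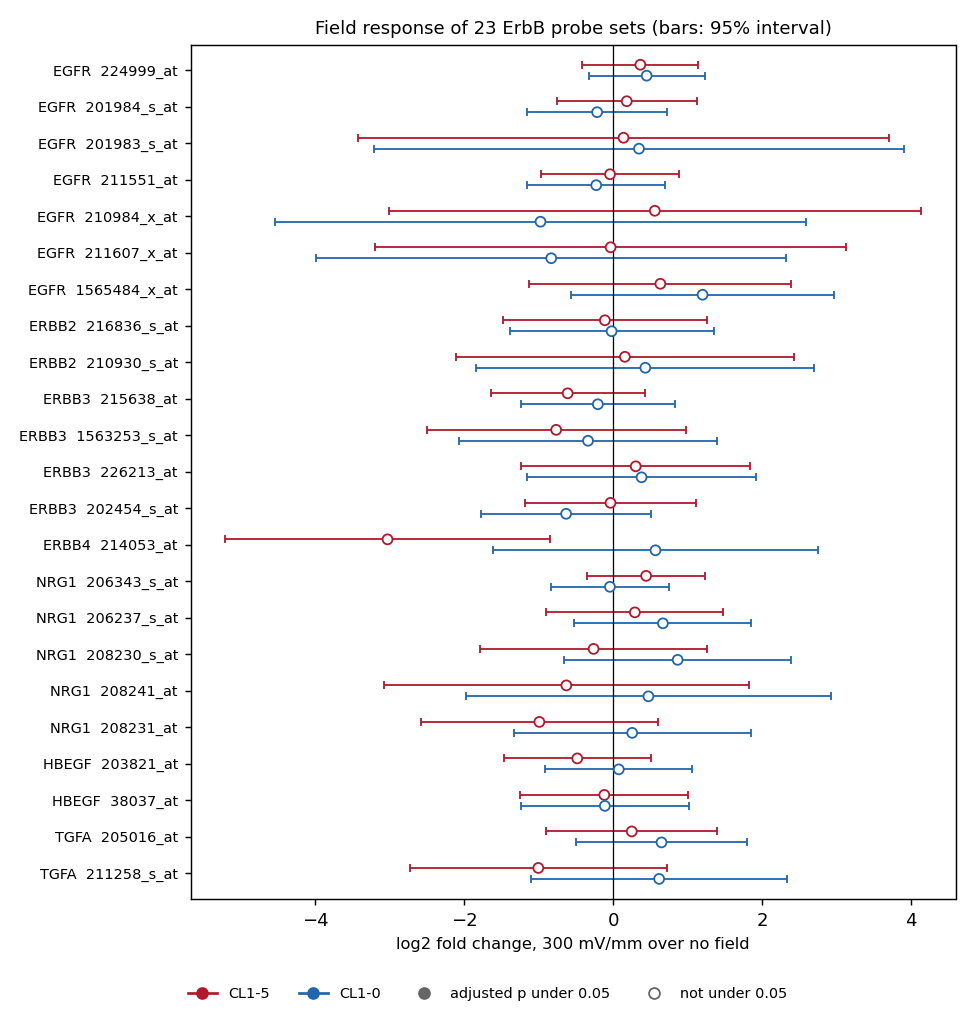
Log2 fold change of 300 mV/mm over no field (x axis) for the 23 tested ErbB probe sets, CL1-5 in red and CL1-0 in blue, with bars for the 95% interval of the limma fit. All points are open, since no adjusted p is under 0.05, and ERBB4 214053_at in CL1-5 is the one interval that does not reach 0.

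The other genes of the pathway were described with 5 lists, a gene being represented by the probe set of highest mean signal, beside all 13882 genes so chosen. Over all genes 8.77% were higher and 8.28% lower in CL1-5 under the field (median log2 fold change -0.08), and 8% were higher and 7.62% lower without it (median -0.03). Among the remaining ErbB ligands 4 of 5 had a named probe set and 1, NRG2, passed the filter. NRG2, a neuregulin, was higher in CL1-5 without the field (log2 fold change 2.11 ± 0.38, SE, adjusted p = 0.00333) and had 1.11 ± 0.38 under it (adjusted p = 0.0786). With the replicate number as a block, 16.9% of all genes were higher and 20% lower under the field, and 16.1% and 18% without it, and NRG2 passed in both states.

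Of 11 genes of ligand processing, 8 were tested, and 2 were higher and 0 lower in CL1-5 in both states (median 0.44 under the field and 0.40 without it). These were TIMP3, an inhibitor of metalloproteinases including ADAM17, with mean log2 signals of 12.64 ± 0.71 in CL1-5 and 8.83 ± 0.21 in CL1-0 under the field (SD, n = 3, adjusted p = 0.000316) and a log2 fold change of 3.81, and ADAM19, a metalloproteinase, with 1.81 (adjusted p = 0.00188). Without the field their log2 fold changes were 4.22 and 2.44. With the block, 3 of the 8 were higher and 1 lower in both states.

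Of 19 negative regulators of the receptors, 18 were tested, and 4 were higher and 1 lower in CL1-5 in both states (median 0.14 under the field and 0.26 without it). SH3KBP1, an adaptor that binds CBL in the uptake of EGFR, had mean log2 signals of 13.88 ± 0.23 in CL1-5 and 9.86 ± 0.41 in CL1-0 under the field (SD, n = 3), a log2 fold change of 4.01 (adjusted p = 9.85e-07), and 3.71 without it. LRIG1, a membrane protein that promotes the degradation of ErbB receptors, had 1.69 under the field (adjusted p = 0.00637) and 2.62 without it (adjusted p = 0.000362). PTPRK, a receptor phosphatase known to act on EGFR, was the one that was lower, with log2 fold changes of -1.56 and -1.58 (adjusted p = 0.00332 and 0.00313). The groups of these 3 genes did not overlap in either state. With the block, 4 of the 18 were higher and 2 lower under the field, and 7 and 2 without it.

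Of 34 adaptors and effectors 24 were named and tested, and 1 was higher and 1 lower in CL1-5 under the field (median 0.08), and 0 higher and 1 lower without it (median 0.03). AKT2, a kinase downstream of PI3K, was higher in CL1-5 under the field (log2 fold change 1.17, adjusted p = 0.00869). MAP2K2, the kinase that activates ERK, was lower in CL1-5 under the field with a log2 fold change of -1.45 (adjusted p = 0.0448), a call lost without any 1 of the 6 arrays (adjusted p = 0.0655 to 0.144), under quantile normalization, with no filter and without a trend (adjusted p = 0.0586 to 0.0721). GAB2, a docking protein of the PI3K branch, was lower without the field (log2 fold change -2.33, adjusted p = 0.0149), a call that ended when CL1-0 replicate 2, CL1-0 replicate 3 or CL1-5 replicate 2 was left out (adjusted p = 0.0593, 0.067 and 0.0501), or when the fit held only the groups compared (0.0544). With the block, 5 of the 24 were higher and 7 lower under the field, and 2 and 6 without it.

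All 15 genes of endocytosis and recycling were tested, and 2 were higher and 1 lower in CL1-5 under the field (median 0.15), and 1 higher and 1 lower without it (median 0.17). CAV1, the main caveolar coat protein, had mean log2 signals of 14.83 ± 0.19 in CL1-5 and 13.40 ± 0.53 in CL1-0 under the field (SD, n = 3), a log2 fold change of 1.44 (adjusted p = 0.00285), and 1.68 without it (adjusted p = 0.000984). AP2M1, a subunit of the clathrin adaptor AP-2, was higher in CL1-5 under the field (log2 fold change 0.58, adjusted p = 0.0185), and the call ended (adjusted p = 0.0506 to 0.0676) when CL1-0 replicate 1 or 3 or CL1-5 replicate 2 or 3 was left out, and with no filter, without a trend or with only the groups compared (0.0502 to 0.0937). STAM, which sorts receptors at endosomes, was lower under the field (log2 fold change -1.45, adjusted p = 0.0173), a call that ended (adjusted p = 0.0565 to 0.073) when CL1-0 replicate 2 or 3 or CL1-5 replicate 1 was left out, and without it (-1.21, adjusted p = 0.0431), a call lost in 5 of the 6 fits that left out 1 array (adjusted p = 0.0516 to 0.151). The call for STAM without the field was also lost under quantile normalization, median centring, no filter, no trend and only the groups compared (adjusted p = 0.0528 to 0.08). With the block, 4 of the 15 were higher and 3 lower under the field, and 1 and 3 without it. For the field itself, 0 genes of these lists passed in CL1-5, in CL1-0 or for the difference between the lines.

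Over the 12 arrays, the genes whose log2 signal was most like EGFR 224999_at were RIPK4 (Pearson r = 0.987), SMAD3 (0.982) and SLC25A37 (0.980), and 479 of 13881 genes had r over 0.9. Those most like HBEGF 203821_at were MVP (0.986), SLC33A2 (0.985) and HPCAL1 (0.975), and 291 genes had r over 0.9. The arrays share their cell lines and replicate numbers, so these values describe the order of the 12 arrays only.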

How the data were processed

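RNA of 12 samples (CL1-5 and CL1-0, each at 300 and 0 mV/mm for 2 h, 3 arrays a group) was measured on Affymetrix arrays of 54675 probe sets. The deposited values are linear intensity signals that, per the submitters' processing notes, came from MAS5. The MAS5 version is not given in the sources used here, nor are its calls. Each array had a trimmed mean, without the lowest and highest 2%, of 500.07 to 500.08, so no further scaling was applied.

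Values under 1 (3691) were set to 1 and taken to log2. Control probe sets (62) were left out, and 31890 were tested, those that exceeded the array's median on 3 or more arrays. Probe sets were named from the platform annotation where it gives 1 symbol (41097, with 1801 of several and 11777 of none), and a set named AREG was not among them. Group means were fitted to all 12 arrays by lmFit and trended eBayes of limma 3.58.1 under R 4.3.3, with Benjamini-Hochberg adjustment over all tested probe sets and an adjusted p threshold of 0.05. In folds written as "at least", values below the array median were raised to it. The limma fit was tested on simulated data with independent normal noise in each probe set. Those data held no shift shared by replicate 1, so that test does not cover the replicate difference. The number of arrays limits the precision (median SE 0.434 for 2 groups).

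Described were all probe sets of the listed genes, of each pathway list up to 3 called genes with the largest change per comparison, and the 3 genes most like a called member. The members and lists were chosen with earlier results of these data known.

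Same-numbered arrays of different groups correlated at 0.254 to 0.665 after the group means were removed, in every pair above 0.1, so the numbers were taken as pairs by this measure alone. For replicate 1 the highest correlation with another number was negative in every pair of groups, while for replicate 3 it exceeded that of the same number in 2 of 6 (0.320 against 0.270 and 0.286 against 0.254). The labels do not state a pairing, and replicate 1 also differs from the others in its spike-in signal. Values from the replicate block are printed where they change a member's call, and as counts for the lists. Other alternatives were quantile normalization, median centring, an offset of 16, raised low values, other filters, no trend, only the groups compared, the spike-in signal as a block or only arrays with it, 1 value per gene, and leaving out each array in turn. Where a fit left a group with 2 arrays, the 4 groups shared 1 estimate of the spread.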

Additional observations from a re-analysis of the deposited data

How the results depend on the processing

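The calls of EGFR 224999_at, NRG1 206237_s_at in both states and of ERBB4 214053_at under the field held under every probe-set alternative that tested them, and no member passed for the field under any of them. ERBB4 214053_at passed the main filter through its CL1-0 arrays alone, and all its CL1-5 values were below their array's median. The log2 size of its line difference under the field ran from -6.25 to -0.81 over the alternatives. With the replicate number as a block, called members numbered 10 under the field and 11 without it, against 6 and 7 unblocked, and all probe sets 10069 and 9094, against 4286 and 3864, and list genes 30 and 26, against 12 and 11. With spike-in signal as the block these were 11 and 11, 9977 and 8994, and 29 and 24. On arrays with the spike-in signal alone, all probe sets called numbered 8077 and 7629 and list genes 25 and 22, and with only the groups compared, list genes without the field numbered 7. The block added calls and ended none among the members. Leaving out 1 array gave 5 to 6 members under the field and 4 to 7 without it (4 without replicate 2 or 3 of CL1-0), 2635 to 3505 and 2577 to 3232 probe sets (2635 without CL1-0 EF replicate 3 and 2816 without replicate 2), and 7 to 11 list genes in both states. For the field, 1 probe set over the array passed in CL1-5 with the spike-in block and on spike-in arrays alone, and 1 in CL1-0 with the replicate block and the spike-in block, with 0 to 1 in each line when 1 array was left out. Averaging all probe sets of NRG1 in place of 206343_s_at turned its line difference without the field to 1.37. The cause of these changes was not tested. Signal near the array median limits ERBB3, ERBB4, TGFA, EREG and BTC.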
